A study of Mus musculus with 36 samples.

Results

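The genes examined here were 28 genes of cholesterol synthesis and handling, picked by name: 9 for the steps from acetyl units to squalene, 10 for those from squalene to cholesterol, 3 regulators, and 6 for sterol transport, export and storage. All 28 were found among the 24750 genes of the table, each as a single row, and all 28 passed the filter on low values, which required 1 normalized CPM in at least 3 libraries. RNA from the epididymal white adipose tissue (eWAT) of 36 male mice was sequenced, 1 library per mouse and 3 mice in each of 12 groups. The groups combined 2 genotypes, WT (C57BL/6) and CCL19-KI, with 3 diets, a normal diet (ND), a 40% high-fat diet (HFD) and a 60% HFD, and with ligature or none. In CCL19-KI mice the chemokine gene *Ccl19* had been knocked into the *Adipoq* locus, which is active in adipocytes, in a homozygous line that was bred apart from the WT mice, so that differences between the lines and the effect of the insertion cannot be told apart. In ligatured mice, silk was tied around the upper second molars at 14 weeks of age to induce periodontitis, after 8 weeks of the diet, and tissue was taken 2 weeks later at 16 weeks of age. The labels of the other 18 mice name no ligature. By the labels all 36 mice had been fed their diet for 10 weeks, and by the study's methods all mice were killed at 16 weeks of age. Lymph nodes had been taken out of the eWAT.

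Cholesterol is built from acetyl units by way of mevalonate, squalene and lanosterol. The genes for nearly all of these enzymes are driven together by a membrane-bound transcription factor, encoded by *Srebf2*, which the escort protein Scap carries to its site of activation when sterols are low and which Insig proteins hold back when sterols are plentiful. Adipose tissue is known to store much cholesterol, free in the lipid droplets and membranes of adipocytes and in the macrophages that gather around them, and the liver is the organ best known for its synthesis, so that the transcript of albumin (*Alb*), a hepatocyte product, was followed beside the members as a gauge of liver RNA.

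The libraries held 11962228 to 21581595 reads, so that 1 read stood for 0.0472 to 0.0834 normalized CPM and a count of 0 allowed levels of up to 0.142 to 0.250 (3 reads, counting error only). All 10 adipocyte markers were found, and their summed level was 5933 to 32449 normalized CPM in every library. RNA of other tissues differed widely between libraries. *Alb* ranged from 5.55 to 26901 normalized CPM and the summed level of 12 hepatocyte markers from 14.2 to 40015. *Alb* was 5.55, 7.85 and 13.4 in WT mice without ligature under an ND, the lowest group mean of the 12. Under the same diet it was 4731, 5423 and 718 in ligatured WT mice, 397, 11700.2 and 13696 in unligatured CCL19-KI mice and 4333, 7.67 and 9.31 in ligatured CCL19-KI mice. *Crisp1*, a transcript of the epididymal epithelium, exceeded 500 normalized CPM in 5 libraries, with 9541 in replicate 3 of CCL19-KI mice without ligature under a 60% HFD. In replicate 2 of that group *Crisp1* was 200, yet the summed level of the epididymal markers was 6014 normalized CPM. Results without the 5 libraries of high *Crisp1* therefore keep this library and do not remove all epididymal RNA. In bulk tissue, fewer cells of a type and less RNA per cell cannot be told apart.

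Because most of these genes are known as common targets of a single regulator, the 250 bases before the annotated start of each were read from RefSeq (GRCm38.p6), which held 22 of the 28 members in the table used. Shown are *Hmgcs1* (ENSMUSG00000093930, chr13:119690101-119690350 on the plus strand), *Mvk* (ENSMUSG00000041939, chr5:114444019-114444268 on the plus strand) and *Nsdhl* (ENSMUSG00000031349, chrX:72918271-72918520 on the plus strand), examples of the synthesis genes called lower in ligatured WT mice under an ND, chosen after their values were seen, *Insig1* (ENSMUSG00000045294, chr5:28071162-28071411 on the plus strand), the member with the largest averaged rise under a 60% HFD, and *Abca1* (ENSMUSG00000015243, chr4:53159896-53160145 on the minus strand), an exporter gene not called in the averaged diet comparison. Each runs 5′ to 3′ on the strand of its gene and ends at the last base before the start. Capitals mark CCAAT on either strand (read as ATTGG on the other) and, in *Hmgcs1*, TCACNCCAC, a sterol response element core with N for any base.
Hmgcs1: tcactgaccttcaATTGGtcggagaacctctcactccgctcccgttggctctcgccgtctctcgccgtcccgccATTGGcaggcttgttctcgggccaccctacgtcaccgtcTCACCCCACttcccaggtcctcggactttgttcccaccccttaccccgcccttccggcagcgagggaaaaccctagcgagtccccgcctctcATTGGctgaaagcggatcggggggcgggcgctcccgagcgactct
Mvk: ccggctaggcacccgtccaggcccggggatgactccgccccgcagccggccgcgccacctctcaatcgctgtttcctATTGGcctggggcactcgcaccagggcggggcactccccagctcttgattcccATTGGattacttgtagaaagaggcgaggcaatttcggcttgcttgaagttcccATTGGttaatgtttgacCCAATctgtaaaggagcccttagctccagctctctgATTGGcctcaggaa
Nsdhl: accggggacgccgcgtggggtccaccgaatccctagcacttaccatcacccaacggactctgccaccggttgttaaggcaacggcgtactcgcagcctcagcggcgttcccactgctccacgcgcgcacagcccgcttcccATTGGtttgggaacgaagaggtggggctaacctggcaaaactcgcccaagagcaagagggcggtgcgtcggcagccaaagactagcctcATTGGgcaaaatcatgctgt
Insig1: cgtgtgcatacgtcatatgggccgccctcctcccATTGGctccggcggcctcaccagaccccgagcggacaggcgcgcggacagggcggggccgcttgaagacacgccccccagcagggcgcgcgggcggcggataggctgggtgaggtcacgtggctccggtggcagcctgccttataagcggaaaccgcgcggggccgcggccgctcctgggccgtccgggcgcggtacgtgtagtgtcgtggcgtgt
Abca1: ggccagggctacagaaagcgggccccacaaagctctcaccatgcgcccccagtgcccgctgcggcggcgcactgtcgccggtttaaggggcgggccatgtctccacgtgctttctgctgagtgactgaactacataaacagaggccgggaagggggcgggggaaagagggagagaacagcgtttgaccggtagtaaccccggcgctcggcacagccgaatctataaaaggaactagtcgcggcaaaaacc
CCAAT was present on either strand in 15 of the 16 synthesis genes with a sequence, 93.8%, and in 37.5% of all 27025 genes with one. It stood 5 times in *Mvk*, 3 times in *Hmgcs1*, 2 times in *Nsdhl* and once in *Insig1*, and these letters were not in the *Abca1* window. CCAAT is a motif apart from the sterol response element core. That core, TCACNCCAC, was present in 1 of the 22 members, *Hmgcs1*, and in 1.22% of all genes, and the motifs did not overlap there. A match is a run of letters and not a measured binding site, and nothing in the RNA data tested one.

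The diet comparison asked how the 60% HFD changed these genes in eWAT. Averaged over genotype and ligature, 18 of the 28 members were higher under a 60% HFD than under an ND and 0 were lower (limma, Benjamini-Hochberg adjusted p below 0.05), beside 18.6% of all 17852 genes tested in either direction and 10.2% called higher. The split over all genes moved with the scaling, since 1816 of the 3315 called genes were higher and, under quantile normalization, 1271 of 3901, where 16 members were called higher and 0 lower. The median difference on the log2(normalized CPM + 1) scale was 0.69 over the members and 0.83 over the 19 synthesis genes, against 0.01 over all genes, and 27 of the 28 members had a difference above 0. The called members were 4 of the 9 genes up to squalene, 10 of the 10 genes after it, 1 of the 3 regulators, and 3 of the 6 transport and storage genes. The map of differences by comparison gives all 28.

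**Figure D1:**
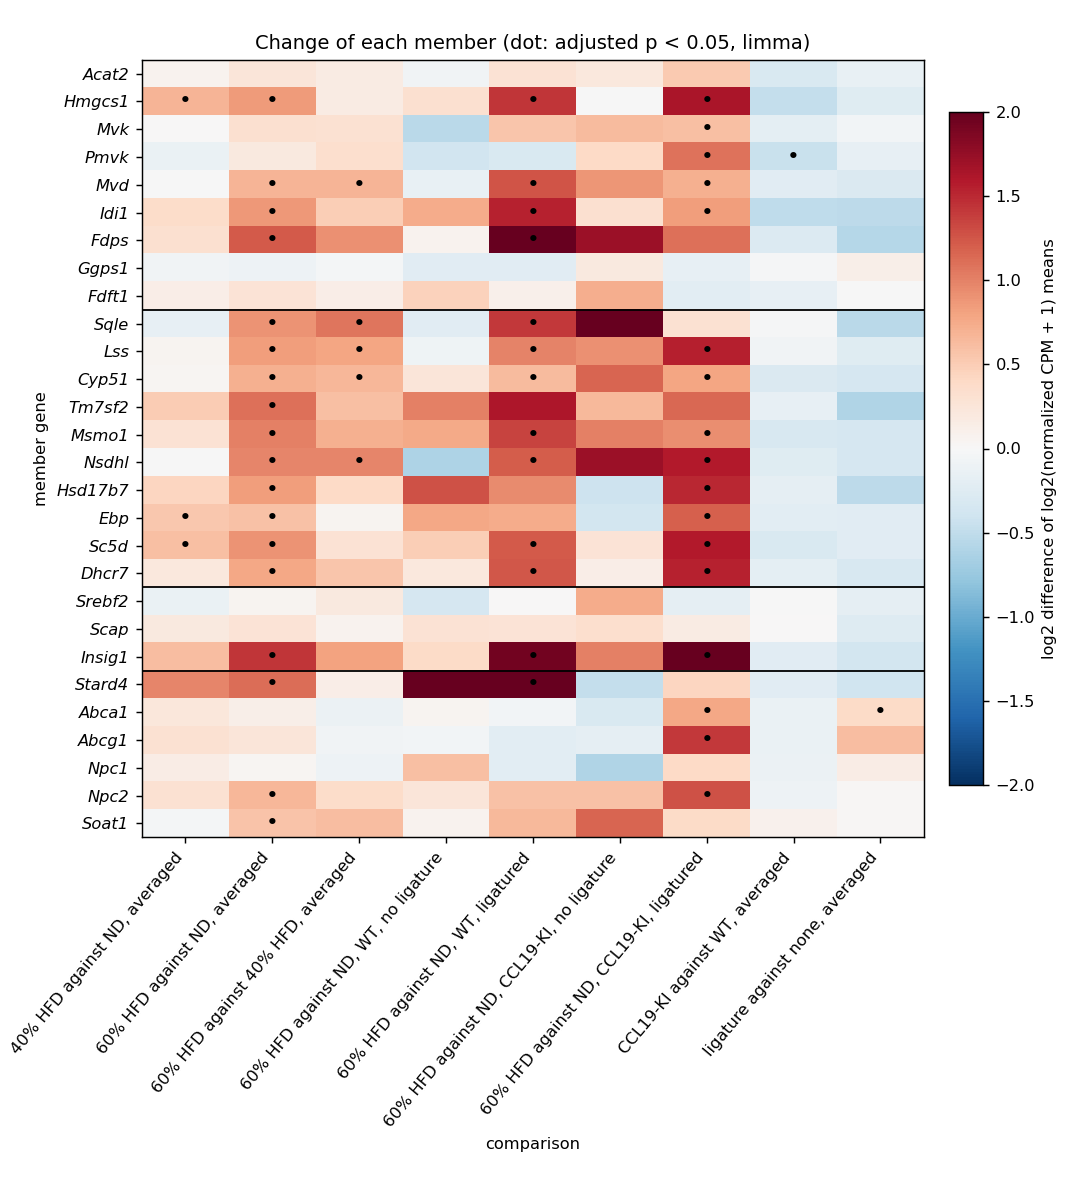
Log2 difference of each of the 28 members (rows, in pathway order, with lines between synthesis up to squalene, synthesis after it, regulators, and transport and storage) in 9 comparisons (columns), with colour from -2 (blue) to 2 (red) and larger differences shown at the end of the scale. Dots mark an adjusted p below 0.05 (limma); 18 members carry a dot for the 60% HFD against ND averaged over all mice and 3 for the 40% HFD.

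Of the genes up to squalene, *Fdps*, which makes farnesyl diphosphate, rose most. Its level was 5.72, 12.7 and 63.6 normalized CPM (lowest, median and highest of 12 mice) under an ND and 15.4, 36.7 and 141 under a 60% HFD, a log2 difference of 1.22 ± 0.25, adjusted p = 0.00233. The ND mice above the 60% HFD median were 2 WT mice without ligature, and the highest value of all was that of the 60% HFD mouse with most *Crisp1*. *Hmgcs1* was 75.1, 147 and 568 normalized CPM (lowest, median and highest of 12 mice) under an ND and 99.2, 372 and 491 under a 60% HFD, and the difference was 0.84 ± 0.18, adjusted p = 0.00271. *Hmgcs1* encodes the synthase that makes HMG-CoA. *Mvd* was 1.93, 3.01 and 10.2 normalized CPM (lowest, median and highest of 12 mice) under an ND and 3.75, 6.24 and 7.85 under a 60% HFD, a difference of 0.68 ± 0.10, adjusted p = 1.57e-04. *Mvd*, a decarboxylase, acts on mevalonate diphosphate, and all 12 mice on a 60% HFD were above the ND median for both *Mvd* and *Fdps*. *Idi1*, the isopentenyl diphosphate isomerase, was 15.0, 22.7 and 74.3 under an ND and 20.5, 54.0 and 103 under a 60% HFD and rose by 0.86 ± 0.18, adjusted p = 0.00234. The differences of *Mvk* and *Pmvk*, kinases of mevalonate and its phosphate, were 0.31 ± 0.12, adjusted p = 0.0635 and 0.20 ± 0.12, adjusted p = 0.237, and neither was called. Those of *Acat2* (0.24), the first enzyme of the route, *Fdft1* (0.27), the squalene synthase, and *Ggps1* (-0.11) were not called either (adjusted p = 0.183, 0.256 and 0.348, limma). *Ggps1*, which leads out of the sterol branch toward geranylgeranyl groups, was the single member with a difference below 0. The level of *Acat2* is uncertain, since reads it shares with its near-identical neighbour *Acat3* are divided between them by estimation.

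After squalene, all 10 genes rose. *Sqle* was 2.43, 6.31 and 28.2 normalized CPM (lowest, median and highest of 12 mice) under an ND and 7.95, 13.4 and 56.1 under a 60% HFD, and the difference was 0.90 ± 0.19, adjusted p = 0.00294. The highest *Sqle* value of each of these diets came from a library of high *Crisp1*. *Sqle* encodes squalene epoxidase, a rate-limiting step. *Nsdhl* was 5.99, 14.3 and 72.7 normalized CPM (lowest, median and highest of 12 mice) under an ND and 17.1, 33.8 and 59.3 under a 60% HFD, a difference of 0.98 ± 0.17, adjusted p = 5.88e-04. *Nsdhl* acts in the removal of methyl groups from lanosterol, and its 3 highest ND values, 72.7, 54.5 and 48.3, all came from WT mice without ligature, the other 9 ND mice being at 17.8 or below. *Msmo1* was 10.2, 12.9 and 35.7 normalized CPM (lowest, median and highest of 12 mice) under an ND and 13.8, 33.6 and 57.1 under a 60% HFD, a difference of 1.01 ± 0.18, adjusted p = 8.00e-04, and *Msmo1* is the methylsterol oxidase of the same steps. *Lss*, which closes the rings of lanosterol, was 14.0, 17.2 and 76.9 under an ND and 19.2, 37.5 and 62.4 under a 60% HFD and rose by 0.84 ± 0.15, adjusted p = 6.34e-04. *Cyp51*, the lanosterol demethylase, was 15.3, 23.4 and 58.3 against 27.2, 43.3 and 84.4 and rose by 0.71 ± 0.15, adjusted p = 0.00217. The lowest 60% HFD mouse was above the ND median for *Sqle*, *Lss*, *Cyp51*, *Msmo1*, *Nsdhl* and *Dhcr7*. *Sc5d*, a sterol desaturase, was 38.3, 69.4 and 227 against 62.1, 157 and 244 and rose by 0.89 ± 0.17, adjusted p = 0.00127. *Dhcr7*, the last reductase, was 5.40, 8.71 and 46.3 against 9.15, 18.5 and 31.2 and rose by 0.78 ± 0.16, adjusted p = 0.00234. Both diets overlapped for all 10 genes. *Tm7sf2*, a sterol reductase, was 2.02, 6.26 and 13.5 against 3.64, 14.6 and 42.8, *Hsd17b7*, a ketosteroid reductase, 5.70, 11.2 and 38.1 against 8.98, 21.8 and 46.7, and *Ebp*, a sterol isomerase, 17.6, 27.4 and 49.4 against 22.3, 46.5 and 72.3. They rose by 1.10, 0.83 and 0.59 (adjusted p = 0.0110, 0.0123 and 0.0200, limma), and these 3 were no longer called with *Alb* or the hepatocyte markers as a covariate (adjusted p = 0.171 to 0.500).

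Of the regulators, *Insig1* rose and *Srebf2* and *Scap* were not called. *Insig1* was 51.5, 67.7 and 595 normalized CPM (lowest, median and highest of 12 mice) under an ND and 111, 242 and 545 under a 60% HFD, a difference of 1.42 ± 0.22, adjusted p = 2.49e-04, the largest among the members. All 12 mice on a 60% HFD were above the ND median, while the ND mouse with the highest value, at 595, exceeded them all. *Insig1* both holds back the pathway and is a target of its transcription factor. For *Srebf2* the difference was 0.06 ± 0.12, adjusted p = 0.759 and for *Scap* 0.27 ± 0.15, adjusted p = 0.206. In CCL19-KI replicate 3 without ligature under a 60% HFD, which had the most *Crisp1*, *Scap* was 149 and *Srebf2* 121, the highest of all 36 libraries for both. The next *Srebf2* values were 94.7 in unligatured WT replicate 2 under an ND, 86.8 in replicate 2 of the same CCL19-KI group and 66.4 in unligatured WT replicate 2 under a 40% HFD. These libraries too held much epididymal RNA. Ligatured CCL19-KI replicates 1 and 2 under an ND, also of high *Crisp1*, were at 59.4 and 55.2. The part of epididymal RNA was not tested.

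Among the transport and storage genes, *Stard4*, *Npc2* and *Soat1* rose. *Npc2* was 256, 418 and 1111 normalized CPM (lowest, median and highest of 12 mice) under an ND and 450.3, 721 and 995 under a 60% HFD, a difference of 0.67 ± 0.18, adjusted p = 0.0128, and *Npc2* is the soluble lysosomal protein that passes cholesterol to Npc1 for export. *Soat1* was 22.2, 35.4 and 77.9 normalized CPM (lowest, median and highest of 12 mice) under an ND and 33.3, 58.9 and 77.3 under a 60% HFD, a difference of 0.57 ± 0.17, adjusted p = 0.0215. *Soat1* esterifies cholesterol for storage and is well known in macrophages. The calls of *Npc2* and *Soat1* were lost under quantile normalization (adjusted p = 0.0546 and 0.0542), and that of *Soat1* also without the 5 libraries of high *Crisp1* (0.0582). *Stard4*, a cytosolic sterol carrier, was 7.82, 13.5 and 45.7 under an ND, 12.3, 26.2 and 105 under a 40% HFD and 8.58, 38.8 and 86.4 under a 60% HFD, and rose by 1.11 ± 0.32, adjusted p = 0.0197. It was not called with *Alb* or the hepatocyte markers as a covariate (adjusted p = 0.250 and 0.268). The exporter genes *Abca1* and *Abcg1* differed by 0.12 ± 0.10, adjusted p = 0.431 and 0.24 ± 0.20, adjusted p = 0.409, and *Npc1* by 0.04 ± 0.14, adjusted p = 0.856, none of them called.

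The 60% HFD groups also held other RNA in different amounts. Of 12 hepatocyte markers, 11 were higher than under an ND (median log2 difference 2.93), *Alb* by 3.53 ± 0.95, adjusted p = 0.0132, and their summed level ranged from 14.5 to 27908 normalized CPM in the ND groups and from 14.2 to 38868 in the 60% HFD groups. Of 6 markers of lipid-associated macrophages, 5 were higher (median 1.81), of 8 general macrophage markers 2 (median 0.15), of 7 kidney tubule markers 3 (median 0.88), and of 10 adipocyte markers 1 was higher and 3 were lower (median -0.12). Of 5 mesothelial markers 1 was lower, *Wt1*, and of 6 skeletal muscle markers 1 was lower, and the medians of the tested epididymal and Leydig cell markers were -0.82 and 0.41. The summed lipid-associated macrophage markers ranged from 100.2 to 1281 normalized CPM in the ND groups and from 199 to 1518 in the 60% HFD groups. With *Alb* in the fit 15 members were called, with the mean of the hepatocyte markers 15, with the epididymal markers 18, and without the 5 libraries of high *Crisp1* 16. The part of macrophage RNA in the rise was not tested.

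**Figure D2:**
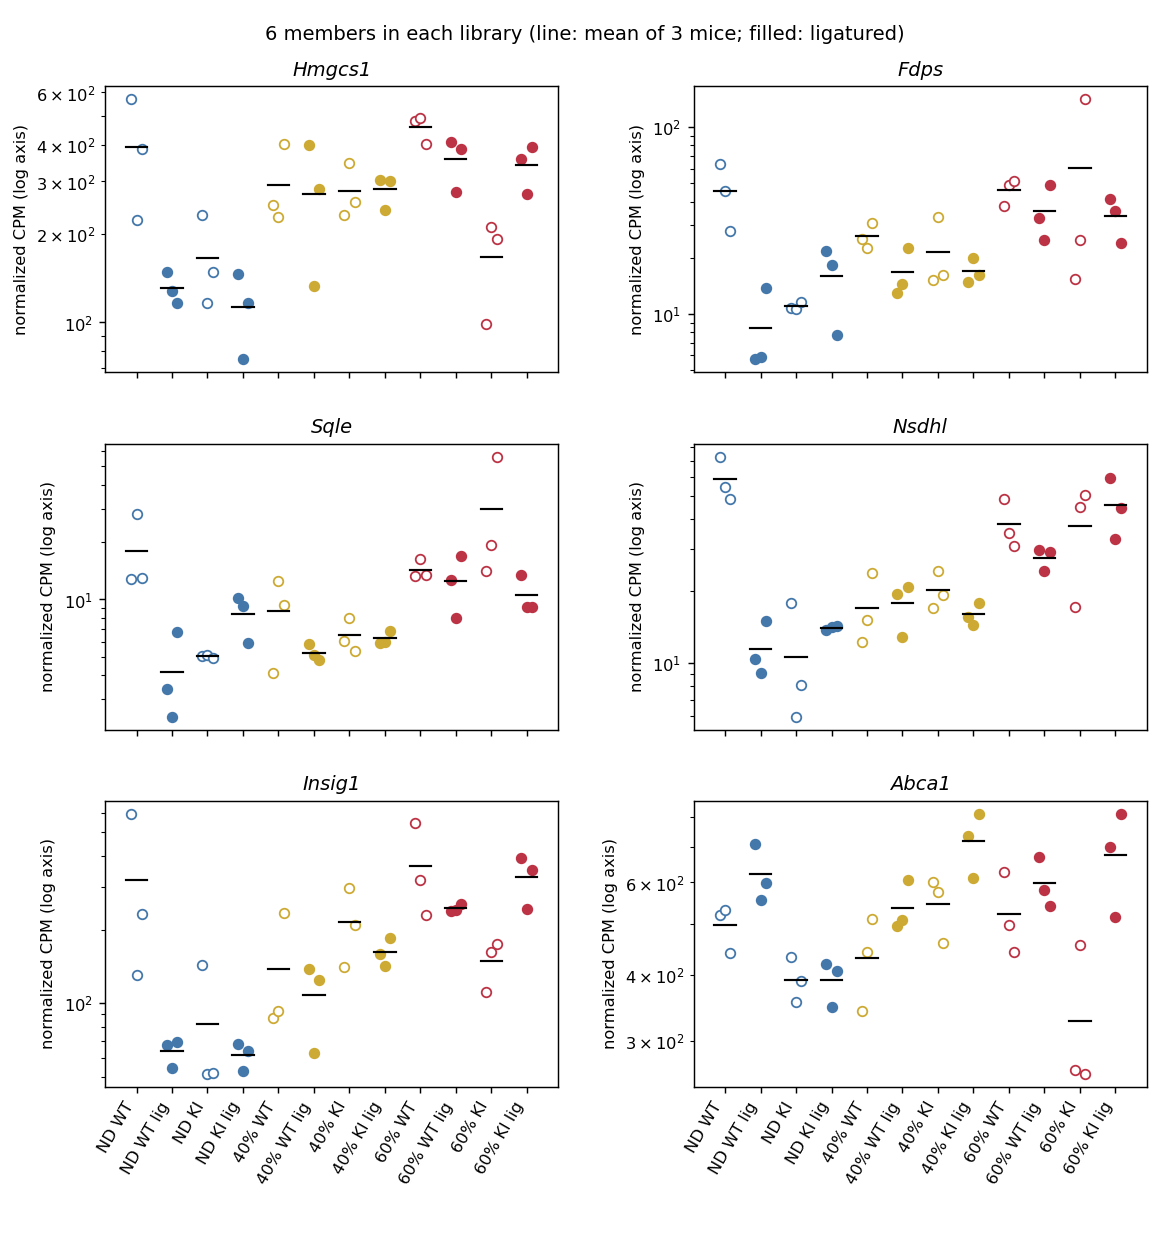
Normalized CPM (log axis) of 6 members in each of the 36 libraries, by group on the x axis (ND blue, 40% HFD yellow, 60% HFD red; open points no ligature, filled points ligatured; KI is CCL19-KI; black line, mean of 3 mice). For Nsdhl, WT mice without ligature under an ND (48.3 to 72.7) sit above the other 3 ND groups (5.99 to 17.8), and Insig1 in ligatured mice is 54.2 to 69.3 (WT) and 53.0 to 68.1 (CCL19-KI) under an ND and 238 to 254 and 242 to 392 under a 60% HFD.

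Within the 4 combinations of genotype and ligature, the number of called members differed. In ligatured WT mice 13 members were higher under a 60% HFD than under an ND (7.29% of 16653 genes called, 3.87% higher), and in ligatured CCL19-KI mice 17 (22.3%, 12.8% higher). In ligatured WT mice, *Insig1* was 67.4, 54.2 and 69.3 normalized CPM under an ND and 238, 242 and 254 under a 60% HFD, a log2 difference of 1.93 ± 0.24, adjusted p = 8.18e-04. In ligatured CCL19-KI mice it was 68.1, 53.0 and 63.9 and 392, 242 and 351, a difference of 2.37 ± 0.24, adjusted p = 5.34e-05. The groups did not overlap in either genotype. The 60% HFD mice lay wholly above the ND mice for 18 members and 20% of all genes in WT, and for 18 members and 20.2% in CCL19-KI mice. *Nsdhl* rose by 1.22 ± 0.22, adjusted p = 0.00715 in the former and 1.59 ± 0.22, adjusted p = 3.34e-04 in the latter, and *Lss* by 0.98 and 1.56 (adjusted p = 0.00901 and 1.32e-04, limma). *Fdps* rose by 2.00 ± 0.38, adjusted p = 0.00967 in WT mice and differed by 1.11 ± 0.38, adjusted p = 0.0509 in CCL19-KI mice. The export genes *Abca1* and *Abcg1* rose in CCL19-KI mice (0.77 and 1.41, adjusted p = 0.00795 and 0.0283, limma) and differed by -0.05 and -0.22 in WT mice.

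Both counts turn on few mice. The WT count was 3 without replicate 1 of the ND mice, 7 without replicate 2, and 8 without replicate 1 or replicate 3 of the 60% HFD mice. The CCL19-KI count was 11 without replicate 2 of the ND mice and 9 without replicate 1 of the 60% HFD mice, and it was 6, 7 and 4 with *Alb*, the hepatocyte markers and the epididymal markers as a covariate and 10 without the libraries of high *Crisp1*. *Alb* was 4333, 7.67 and 9.31 in these ND mice and 12273, 11117 and 1337 in the 60% HFD mice.

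Without ligature, 0 members were called for the 60% HFD in WT mice by limma (2.25% of 16923 genes called) or by edgeR. At an unadjusted p under 0.05 by limma were 4 members and 1985 of the 16923 genes. In CCL19-KI mice 0 were called as well, by limma (0.124% of genes) or edgeR, while 11 members and 4071 genes had an unadjusted p under 0.05 (limma). The medians over the members were 0.22 in WT and 0.49 in CCL19-KI mice. Whether the ligature changed the response to the 60% HFD was tested in WT mice, by a contrast chosen after seeing the data. By limma (0% of genes) and by edgeR, 0 members were called. Of the members 9, and of 17852 genes 1728, had an unadjusted p under 0.05 (limma). The same difference in CCL19-KI mice was not tested. The count in CCL19-KI mice was 6 without replicate 1 of the ND mice. In the fit of all 36 mice, the count was 1 in unligatured WT mice and 8 in unligatured CCL19-KI mice.

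Fewer members were called for the 40% HFD, and their share was close to that of all genes called in either direction. Averaged over the other factors, 3 were higher than under an ND and 0 lower, 9.21% of all genes being called and 5.36% called higher (957 of 1645 called genes, and 772 of 1910 under quantile normalization). *Hmgcs1* was 75.1, 147 and 568 normalized CPM (lowest, median and highest of 12 mice) under an ND and 133, 269 and 402 under a 40% HFD, a log2 difference of 0.68 ± 0.18, adjusted p = 0.0209. *Sc5d* was 38.3, 69.4 and 227 under an ND, 59.3, 115 and 186 under a 40% HFD and 62.1, 157 and 244 under a 60% HFD and rose under the 40% HFD by 0.60 ± 0.17, adjusted p = 0.0286, a call that was lost in 11 of 49 other settings (adjusted p up to 0.465). *Ebp*, a sterol isomerase, was 17.6, 27.4 and 49.4 under an ND, 19.9, 42.2 and 66.9 under a 40% HFD and 22.3, 46.5 and 72.3 under a 60% HFD and rose under the 40% HFD by 0.53 ± 0.17, adjusted p = 0.0499, a call that was lost in 33 of 49 other settings. The values of the diets overlapped for all 3, and the median difference over the members was 0.20. None of the 3 was called with *Alb*, the hepatocyte or the epididymal markers as a covariate, and 11 of the 12 hepatocyte markers were higher under the 40% HFD (median log2 difference 3.81).

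Between the HFDs, 5 members were higher under the 60% HFD and 0 were lower, where 0.745% of all genes were called (0.465% higher), and 24 of the 28 had a difference above 0. All 5 were synthesis genes. *Sqle* was 4.13, 5.98 and 12.5 under a 40% HFD against 7.95, 13.4 and 56.1, a log2 difference of 1.07 ± 0.19, adjusted p = 0.0107. Its highest value in each HFD came from a library of high *Crisp1*. *Nsdhl* was 12.2, 17.4 and 24.1 against 17.1, 33.8 and 59.3, a difference of 0.98 ± 0.17, adjusted p = 0.00600. *Lss* was 13.2, 22.3 and 30.6 against 19.2, 37.5 and 62.4, *Mvd* 2.66, 3.47 and 4.70 against 3.75, 6.24 and 7.85 and *Cyp51* 19.7, 25.2 and 43.9 against 27.2, 43.3 and 84.4. They differed by 0.79, 0.68 and 0.67 (adjusted p = 0.0126, 0.00328 and 0.0248, limma). Between the 40% HFD and the ND the difference was 0.05 for *Lss*, 0.04 for *Cyp51* and -0.17 for *Sqle*, and none of the 5 was called. Between the HFDs the hepatocyte markers had a median difference of -0.93, and 2 of the 6 lipid-associated macrophage markers were higher (median 1.31). With *Alb* as a covariate, 5 members were called. The call of *Cyp51* was lost in 5 of 49 other settings, each of which left out 1 mouse (adjusted p up to 0.0588), and the count was 9 without replicate 1 of the unligatured WT mice on an ND.

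In ligatured CCL19-KI mice, 7 members were higher under the 40% HFD than under an ND (11.7% of genes called, 5.64% higher). Among them were *Insig1* (68.1, 53.0 and 63.9 under an ND, 159, 143 and 186 under a 40% HFD, a difference of 1.38 ± 0.24, limma, adjusted p = 0.00396), *Npc2* (0.88) and the exporter genes *Abca1* (0.87) and *Abcg1* (1.78). In ligatured WT mice 0 were called by limma (1.35% of genes) or edgeR, and 8 members and 2859 of 16653 genes had an unadjusted p under 0.05 (limma). In unligatured CCL19-KI mice 0 were called likewise (0% of genes), and 4 members and 930 of 16923 genes had an unadjusted p under 0.05 (limma). In WT mice without ligature 2 were lower (2.67% of genes called, 0.207% lower). These were *Nsdhl* (-1.75 ± 0.40, adjusted p = 0.0305) and *Mvk* (-1.11 ± 0.27, adjusted p = 0.0365), and without replicate 1 or 3 of the ND mice, or any of the 40% HFD mice, 0 were called. The WT count was also 0 with *Alb* or the hepatocyte markers as a covariate, and 6 in the fit of all 36 mice. The CCL19-KI count was 2 without replicate 2 of the ligatured ND mice or replicate 1 of the 40% HFD mice and 4 without replicate 2 of the 40% HFD mice. It was 1, 2 and 0 with *Alb*, the hepatocyte markers and the epididymal markers as a covariate, 0 without the 5 libraries of high *Crisp1* and 4 in the fit of all 36 mice.

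The ligature comparison asked whether periodontitis changed these genes in eWAT. Averaged over diet and genotype, 1 member was called, *Abca1*, where 0.325% of all genes were called. *Abca1*, the cholesterol exporter that loads lipoproteins, was 259.7, 450.1 and 629 normalized CPM (lowest, median and highest of 18 mice) without ligature and 348, 591 and 809.8 with it, a log2 difference of 0.39 ± 0.08, adjusted p = 0.0315. The groups overlapped, and the call was lost in 16 of 49 other settings, each of which left out 1 mouse (adjusted p up to 0.0688). *Abcg1*, its partner in export, differed by 0.61 ± 0.16, adjusted p = 0.0897. Of all 28 members 14 had an unadjusted p under 0.05 (limma), and of all 17852 genes 2885. Of the 19 synthesis genes 18 had a difference below 0, none of them called, with a median of -0.29. This direction was not shared by all arms. The synthesis median was -1.14, -0.27 and -0.37 in WT mice under an ND, a 40% HFD and a 60% HFD. In CCL19-KI mice it was 0.02, -0.06 and 0.33. Within the arms, *Abca1* rose in CCL19-KI mice under a 60% HFD, from 264, 457 and 259.7 to 701, 516 and 809.8, a difference of 1.07 ± 0.20, adjusted p = 0.00691, with 5.66% of genes called. It was the only member called in that arm, the groups did not overlap, and of the unligatured mice the third carried the most *Crisp1*. There, ligatured mice lay wholly above unligatured ones for 5 members and 12.4% of all genes. Without ligatured replicate 1, or under quantile normalization, no member was called there. The count was 4 without unligatured replicate 2 of that arm or without WT replicate 2 of the unligatured ND mice, 3 without unligatured replicate 1, and 2 without unligatured replicate 3, without WT replicate 1 of the unligatured or without WT replicate 2 of the ligatured 40% HFD mice. By edgeR, and without the libraries of high *Crisp1*, it was 3.

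Of the 6 arms, most members were called in WT mice under an ND, where 10 members were lower in ligatured mice and 1 was higher, and 6.73% of all genes were called (4.05% lower). The median over the 19 synthesis genes was -1.14. *Nsdhl* was 72.7, 54.5 and 48.3 normalized CPM without ligature and 10.4, 9.12 and 14.9 with it, a log2 difference of -2.26 ± 0.33, adjusted p = 0.00125. *Fdps* was 63.6, 45.5 and 27.7 against 5.72, 5.88 and 13.8, a difference of -2.33 ± 0.51, adjusted p = 0.00955. *Insig1* was 595, 131 and 231 against 67.4, 54.2 and 69.3, a difference of -2.04 ± 0.45, adjusted p = 0.0105. The groups did not overlap for any of these 3, although the unligatured mice differed among themselves, *Insig1* being highest in replicate 1. *Mvd* was 10.2, 8.29 and 6.00 against 1.93, 2.13 and 2.24 (-1.54 ± 0.20, adjusted p = 8.21e-04). *Sqle* was 12.8, 28.2 and 13.0 against 3.38, 2.43 and 6.73 (-1.87 ± 0.39, adjusted p = 0.00704). *Mvk* was 36.0, 21.0 and 28.0 against 8.76, 10.7 and 16.9 (-1.17 ± 0.24, adjusted p = 0.00661). These too did not overlap. In this arm the ligatured mice lay wholly below the unligatured ones for 15 of the 28 members and 15.3% of all 17852 genes. They lay wholly above for 1 member and 14.2% of all genes. *Lss* was 76.9, 37.7 and 33.1 against 15.6, 14.0 and 17.3 and fell too (adjusted p = 0.00541). *Dhcr7*, *Hmgcs1* and *Idi1* fell by 1.46, 1.48 and 1.45. *Npc1*, the lysosomal membrane protein that exports cholesterol, was 64.1, 50.4 and 47.0 against 166, 126 and 59.7 and rose by 1.00 ± 0.29, adjusted p = 0.0372, the third ligatured mouse lying within the unligatured range.

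These WT groups also differed in other RNA. All 12 hepatocyte markers were higher in the ligatured mice (median log2 difference 6.34), *Alb* by 8.13 ± 1.91 (limma, adjusted p = 0.0144). The summed hepatocyte markers were 16.7 to 18.9 normalized CPM in the unligatured and 1164 to 9112 in the ligatured mice, the summed epididymal markers 4.13 to 6175 and 0.456 to 2.40. The summed mesothelial markers were 327 to 502 against 1083 to 1229.7, with a median log2 difference of 1.61, and did not overlap. The summed lipid-associated macrophage markers were 1281, 235 and 170.3 in the unligatured mice and 149 to 182 in the ligatured ones, the first value being that of the mouse with the most *Insig1*. The part of these cells in the differences was not tested. With *Alb* as a covariate 3 members were called, with the hepatocyte markers 9, with the epididymal markers 11, and without the libraries of high *Crisp1*, among which was unligatured replicate 2, 12. The count was 4 without unligatured replicate 1, 3 without ligatured replicate 1 and 4 without ligatured replicate 2. An exact two-sided permutation test of 3 mice against 3 cannot give a p below 0.1.

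**Figure D3:**
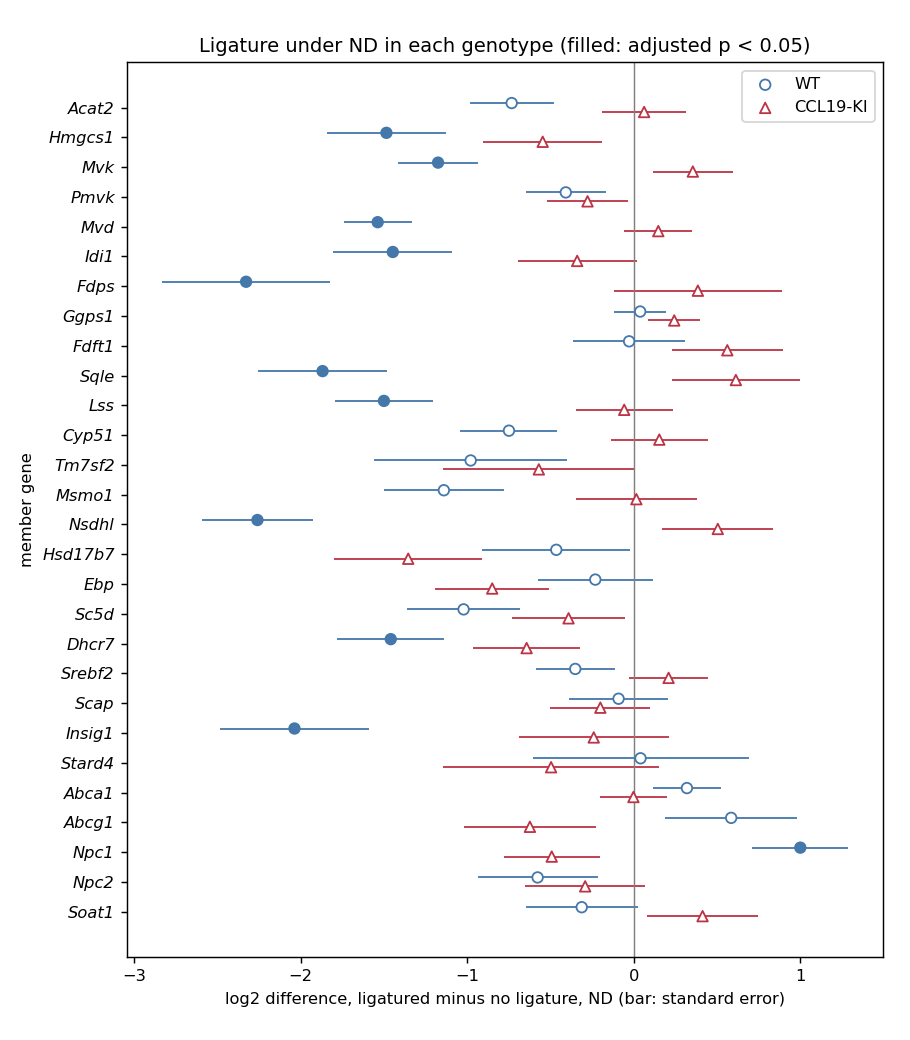
Log2 difference between ligatured and unligatured mice under an ND for each of the 28 members, in WT (circles) and CCL19-KI mice (triangles), with the standard error as bars and filled symbols for an adjusted p below 0.05 (limma). In WT mice 11 symbols are filled, from -2.33 (Fdps) to 1.00 (Npc1), and in CCL19-KI mice 0.

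In CCL19-KI mice under an ND, 0 members were called for the ligature by limma (1.37% of genes) or edgeR. At an unadjusted p under 0.05 (limma) were 2 members and 3235 of 17852 genes. *Nsdhl* was 17.8, 5.99 and 8.14 without and 13.7, 14.2 and 14.3 with ligature, and *Fdps* 10.8, 10.7 and 11.6 and 21.9, 18.4 and 7.72, with overlapping groups for each. The difference between the genotypes in this response, a contrast chosen after seeing the data, was called for 7 members (7.59% of genes). It was positive for *Nsdhl* (2.76 ± 0.47, adjusted p = 0.00204), *Fdps*, *Sqle*, *Mvd*, *Mvk* and *Lss* and negative for *Npc1*. The count was 4 without ligatured WT replicate 1 or 2, without unligatured CCL19-KI replicate 2 or 3, or without ligatured CCL19-KI replicate 2, and with *Alb* or the hepatocyte markers as a covariate 0 were called. Averaged over the diets, the same interaction was called for 0 members by limma (0.0056% of genes) or edgeR. There, 13 members and 1925 of 17852 genes had an unadjusted p under 0.05 (limma). The other 3 arms gave 0 called members each, with 6 and 1 at an unadjusted p under 0.05 in WT and CCL19-KI mice under a 40% HFD and 0 in WT mice under a 60% HFD (limma, and 0 by edgeR in each), and with 0% of genes called in each of these arms.

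The genotype comparison asked whether the CCL19-KI mice differed from WT mice, the study's main contrast being that of ligatured mice within a diet. Averaged over diet and ligature, 1 member was lower in CCL19-KI mice, *Pmvk*, with 0.459% of all genes called. *Pmvk* was 11.8, 19.9 and 38.8 normalized CPM (lowest, median and highest of 18 mice) in WT and 8.96, 12.7 and 25.2 in CCL19-KI mice, with overlap, a log2 difference of -0.44 ± 0.10, adjusted p = 0.0393. The call was lost in 24 of 49 other settings, which were quantile normalization and the omission of single mice (adjusted p up to 0.118). All 19 synthesis genes had a difference below 0, with a median of -0.22, against -0.02 over all genes. The arms did not share this direction. The synthesis median was -1.04, -0.07 and -0.42 in unligatured mice under an ND, a 40% HFD and a 60% HFD. In ligatured mice it was 0.07, 0.18 and -0.02. The next smallest averaged p-values were those of *Idi1* (-0.51 ± 0.15, adjusted p = 0.0959) and *Hmgcs1* (-0.48 ± 0.15, adjusted p = 0.108), not called (limma). Without the 5 libraries of high *Crisp1*, 7 members were called.

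In ligatured mice under an ND, *Pmvk* was 22.7, 24.8 and 18.2 in WT and 9.37, 8.96 and 11.4 in CCL19-KI mice, groups that did not overlap, and the difference was -1.07 ± 0.18, adjusted p = 0.00469, the single call among the members (2.22% of genes called). It was lost with the epididymal markers as a covariate (adjusted p = 0.904) and without the libraries of high *Crisp1* (0.180), which removes 2 of the 3 CCL19-KI mice. *Abca1* was 711, 556 and 599 in WT and 419.8, 348 and 407 in CCL19-KI mice without overlap, a difference of -0.66 ± 0.17, adjusted p = 0.0603, which missed the threshold. In this arm CCL19-KI mice lay wholly below WT mice for 4 members and 10.1% of all genes. Under a 40% HFD 0 members were called by limma (0.0420% of genes), edgeR or DESeq2. At an unadjusted p under 0.05 (limma) were 2 members and 908 of 16653 genes. *Insig1* came nearest, at 138, 62.9 and 125 in WT and 159, 143 and 186 in CCL19-KI mice (0.65 ± 0.24, limma, adjusted p = 0.859). Under a 60% HFD 0 were called by limma (0.0781% of genes), edgeR or DESeq2, and 3 members and 771 genes had an unadjusted p under 0.05 (limma). *Lss* came nearest, at 32.8, 29.1 and 33.7 in WT and 60.2, 43.0 and 48.9 in CCL19-KI mice (0.64 ± 0.19, limma, adjusted p = 0.770). The median over the members was 0.19 under a 40% HFD and -0.02 under a 60% HFD.

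Without ligature and under an ND, 6 members were lower in CCL19-KI mice and 0 higher (7.28% of genes called, 3.27% lower). *Nsdhl* was 72.7, 54.5 and 48.3 in WT and 17.8, 5.99 and 8.14 in CCL19-KI mice, a difference of -2.46 ± 0.40, adjusted p = 0.0173. *Mvk* was 36.0, 21.0 and 28.0 and 14.4, 7.08 and 9.08, a difference of -1.41 ± 0.27, adjusted p = 0.0200. *Mvd*, *Pmvk*, *Lss* and *Sqle* differed by -1.31, -1.20, -1.37 and -1.56 (adjusted p = 0.0200, 0.0299, 0.0376 and 0.0474, limma). This contrast shares its WT mice with the ligature contrast described before, so that the lower values cannot be read as a separate result. All 12 hepatocyte markers were higher in these CCL19-KI mice (median 7.72), with summed levels of 626 to 27908 normalized CPM, and 4 of 10 adipocyte markers lower (median -1.48). The adipocyte list includes *Adipoq*, the locus of the insertion, with a median over all groups of 2323 in the 18 WT and 616 in the 18 CCL19-KI mice. With *Alb* or the hepatocyte markers as a covariate 0 members were called. Leaving out the first WT mouse, or either the second or the third CCL19-KI mouse, gave a count of 0. It was 2 without the third WT mouse, and it reached 11 once the first CCL19-KI mouse was dropped. Under a 40% HFD 0 members were called by limma (0% of genes) or edgeR. At an unadjusted p under 0.05 (limma) were 0 members and 723 of 16923 genes. Under a 60% HFD 1 was called (4.06%), *Hmgcs1*. It was 479, 491 and 403 in WT and 99.2, 211 and 191 in CCL19-KI mice, a difference of -1.52 ± 0.37 (limma, adjusted p = 0.0426). These groups did not overlap, and CCL19-KI mice lay wholly below WT mice for 9 members and 17% of all genes. The count was 0 without any single WT mouse of that diet or without CCL19-KI replicate 1. It was also 0 when a mouse of another diet was left out from the same fit, namely WT replicate 1 or 3 on an ND, WT replicate 3 on a 40% HFD, or CCL19-KI replicate 2 or 3 on a 40% HFD. Further, it was 0 with a pseudocount of 5, no filter, quantile normalization or any of the 3 covariates, but 6 in the fit of all 36 mice and 4 without the libraries of high *Crisp1*.

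The genotype effect was not the same under the 60% HFD and the ND for 1 member, *Pmvk* (0.476% of genes called), by 1.09 ± 0.24, adjusted p = 0.0378, a call lost in 18 of 48 other settings (adjusted p up to 0.162). Between the 40% HFD and the ND, 0 members were called by limma (0% of genes) or edgeR, with a median of 0.49. There, 11 members and 1964 of 17852 genes had an unadjusted p under 0.05 (limma).

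A mean over the 19 synthesis genes on the log2(normalized CPM + 1) scale, given as a description with no test, ordered the groups. It was highest in WT mice without ligature under a 60% HFD, at 5.47 ± 0.06 (SD, n = 3), followed by WT mice without ligature under an ND, at 5.26 ± 0.29, and by ligatured CCL19-KI and WT mice under a 60% HFD, at 5.14 ± 0.28 and 5.12 ± 0.23. Neighbours in this order overlapped. Next came CCL19-KI mice without ligature under a 60% HFD, the most uneven group, at 4.92 ± 0.67 with a range of 4.26 to 5.59. The 4 groups on a 40% HFD lay between 4.50 ± 0.34 and 4.82 ± 0.25. The lowest were the other 3 ND groups, CCL19-KI without ligature at 4.28 ± 0.18, ligatured CCL19-KI at 4.17 ± 0.20 and ligatured WT at 4.17 ± 0.08, which overlapped with each other. The mean over the 6 transport and storage genes spanned less, from 6.31 ± 0.31 in ligatured CCL19-KI mice under an ND to 7.20 ± 0.03 in WT mice with ligature on a 60% HFD.

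**Figure D4:**
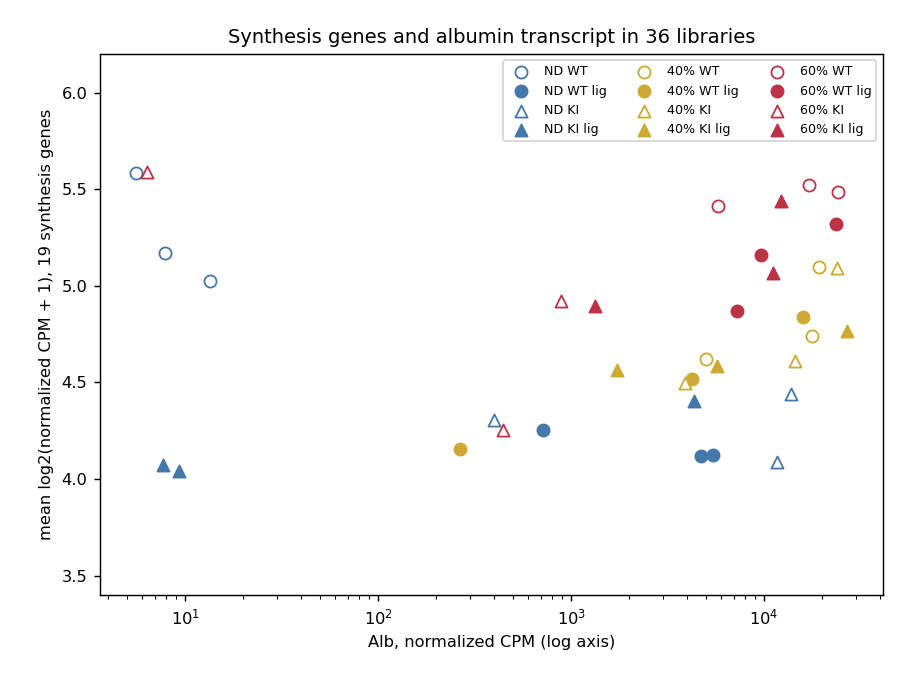
Mean log2(normalized CPM + 1) of the 19 synthesis genes (y axis) against Alb in normalized CPM (x axis, log scale), 1 point per library, by diet (colour), genotype (circle WT, triangle CCL19-KI) and ligature (filled). Of the 6 libraries at the left, with the least Alb, the 3 unligatured WT mice under an ND lie at 5.02 to 5.59, 2 ligatured CCL19-KI mice under the same diet at 4.04 and 4.07, and 1 unligatured CCL19-KI mouse under a 60% HFD at 5.59.

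The level of *Alb* and that of the synthesis genes did not go together over all 36 libraries, as the plot of both shows, but did in part within the HFDs. Under a 40% HFD the synthesis mean was 4.15 in ligatured WT replicate 2 (*Alb* 267). It was 5.10 in unligatured WT replicate 3 (19185) and 5.09 in unligatured CCL19-KI replicate 2 (23726). At the highest *Alb*, 26901 in ligatured CCL19-KI replicate 2, it was 4.77. Under a 60% HFD it was 4.26 in unligatured CCL19-KI replicate 1 (444) and 5.49 in unligatured WT replicate 3 (24132). Of the libraries with little *Alb*, the 3 unligatured WT mice under an ND had synthesis means of 5.02 to 5.59, while ligatured CCL19-KI replicates 2 and 3 under the same diet, with *Alb* at 7.67 and 9.31, had 4.07 and 4.04. Unligatured CCL19-KI replicate 3 under a 60% HFD, with *Alb* at 6.38 and the most *Crisp1*, had 5.59, the highest of all 36 libraries. Within groups, the slope of each gene on log2(*Alb* + 1) was positive for 2 members and negative for 0 (adjusted p below 0.05, limma). This was close to the share of all genes called, 7.19%. The slope was 0.10 ± 0.02, adjusted p = 0.00333 for *Npc1* per log2 unit of *Alb*, and 0.11 ± 0.03, adjusted p = 0.0182 for *Ebp*. The call of *Ebp* was lost without replicate 1 of the unligatured CCL19-KI mice on an ND or replicate 2 of the ligatured WT mice on a 40% HFD, and 6 members were called without replicate 3 of the unligatured CCL19-KI mice on a 60% HFD, the library with the most *Crisp1*. *Hsd17b7* had the largest slope, 0.12 ± 0.04, adjusted p = 0.0508, and missed the threshold. The slope of *Sqle*, *Nsdhl*, *Lss* and *Mvk* was negative, -0.04, -0.05, -0.04 and -0.05, and not called, and that of *Insig1* was -0.02. All 12 hepatocyte markers had a positive slope (median 0.84), the median over the members being 0.00795.

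**Figure D5:**
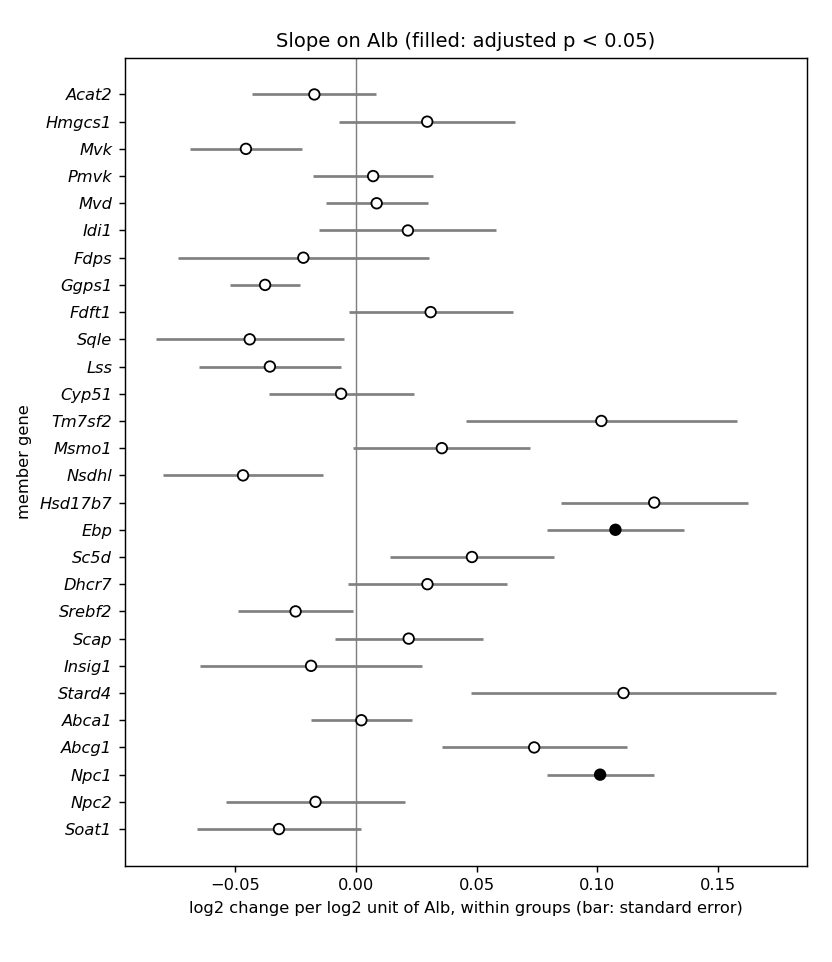
Slope of each member on log2(Alb + 1) within the 12 groups (x axis, log2 change per log2 unit; bars, standard error; filled, adjusted p below 0.05 by limma). The slopes run from -0.05 (Mvk) to 0.12 (Hsd17b7), and those of Npc1 and Ebp are filled.

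A list of 26 other sterol genes was followed beside the members, 25 of which were tested. Under a 60% HFD, averaged, 8 were higher than under an ND and 0 lower (median 0.38), beside 10.2% of all genes called higher. They included *Lipa* (1.05 ± 0.21, adjusted p = 0.00182) and *Nceh1* (0.69), hydrolases of cholesteryl esters, *Tmem97* (0.99 ± 0.20, adjusted p = 0.00164), a sterol-responsive membrane protein that binds Npc1, *Pltp* (0.82), a phospholipid transfer protein, and *Lpcat3* (0.52), which remodels phospholipids. The other called genes were *Erlin2* (0.37) and the bile acid genes of the liver *Cyp7a1* (2.44 ± 0.62, adjusted p = 0.00909) and *Cyp8b1* (2.06). Under a 40% HFD, averaged, 6 were higher and 0 lower (median 0.25), beside 5.36% of all genes called higher, namely *Cyp7a1*, *Cyp8b1*, *Cyp7b1*, *Cyp27a1*, *Soat2* and *Abcg8*, and all 6 also had a positive slope on *Alb* within groups. *Tmem97* had one too (0.14 ± 0.03, adjusted p = 0.00254). In WT mice under an ND, *Erlin2* alone was called for the ligature (-0.80 ± 0.24, adjusted p = 0.0429). In unligatured mice under an ND, *Srebf1*, the regulator of fatty acid synthesis, was lower in CCL19-KI mice (-2.05 ± 0.48, adjusted p = 0.0288) and *Insig2*, *Abcg5*, *Abcg8* and *Cyp8b1* were higher.

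The study's own criteria, an unadjusted p of at most 0.05 with a linear ratio from the log2 difference of 1.5 or more, or 0.67 or less, called more members in most comparisons, and in most a larger share of all genes. Between the HFDs they called 10 higher and 0 lower (2.27% of genes), for the ligature averaged over diet and genotype 1 higher and 1 lower (1.28% of genes), and for the genotype averaged 0 higher and 0 lower (0.454% of genes). In ligatured mice they called for the genotype 2 higher and 4 lower (9.19% of genes) under an ND, 1 higher and 0 lower (1.56% of genes) under a 40% HFD and 2 higher and 1 lower (2.1% of genes) under a 60% HFD. Without ligature they called 1 higher and 14 lower (20.7% of genes) for the genotype under an ND, and for the 60% HFD 4 higher and 0 lower (9.21% of genes) in WT and 10 higher and 1 lower (19.1% of genes) in CCL19-KI mice. Under a 60% HFD they called 0 higher and 10 lower (19.9% of genes) for the genotype without ligature, and 7 higher and 2 lower (18.6% of genes) for the ligature in CCL19-KI mice. For the 40% HFD they called 4 higher and 0 lower (8.54% of genes) in ligatured WT mice and 2 higher and 6 lower (13.2% of genes) in unligatured ones. Among the interactions, the genotype effect was called as 10 higher and 0 lower (6.2% of genes) between the 40% HFD and the ND, and as 4 higher and 1 lower (14.4% of genes) between the 60% HFD and the ND. The ligature effect in CCL19-KI against WT mice was called as 11 higher and 0 lower (4.54% of genes) over all diets and as 11 higher and 2 lower (22.9% of genes) under an ND, and that under the 60% HFD against the ND in WT mice as 9 higher and 0 lower (8.05% of genes).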

How the data were processed

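RNA from the eWAT of 36 mice had been sequenced by the authors from rRNA-depleted, directional, paired-end libraries, trimmed (Trimmomatic 0.38), aligned with Bowtie2 and quantified with RSEM 1.3.0. The submitters' processing notes name the GRCm39 genome and edgeR, while the study's methods name mm10. The annotation release and the strand setting of the counting are not given in the sources used here. The deposited values are a signal per gene, CPM scaled by normalization factors, here called normalized CPM. All nonzero values were whole multiples of a single step per library (100% within a tolerance of 0.01), from which the reads per library, 11962228 to 21581595, were recovered.

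Groups were taken from the labels. The series' design text states a ligature for all groups, whereas the labels of 18 mice name none, and the labels were followed. No library repeated another of its group (36 pairs). The p-values measure the spread between these mice.

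Values were tested as log2(normalized CPM + 1) with limma 3.58.1 (R 4.3.3, moderated with a mean-variance trend), for genes that reached 1 normalized CPM in 3 or more libraries of the fit, and p-values were adjusted (Benjamini-Hochberg) over all genes. A gene was called at an adjusted p below 0.05, by limma, edgeR and DESeq2 alike. All 36 mice were fitted as 12 group means for averages over factors, ligature contrasts and interactions (17852 genes), the 18 ligatured mice for their diet and genotype contrasts (16653) and the 18 others likewise (16923). Errors of differences are standard errors. The slope on *Alb* was fitted beside the 12 group means. Differences understate the change of low genes. Marker lists covered hepatocytes, adipocytes, macrophages, lipid-associated macrophages, epididymal epithelium, kidney tubule, Leydig cells, skeletal muscle and mesothelium. All 28 members and *Alb* were named, with full values for members called in an averaged contrast (by rule, else for the 3 with the smallest p), and other sterol genes by counts with the called ones named. Members given in full for single arms were chosen after their values were seen. The members, lists and contrasts were chosen with earlier results of these data known. Alternatives included edgeR 4.0.16 and DESeq2 1.42.0 on the recovered reads, other pseudocounts, filters and scalings, covariates and leaving out each mouse. The study's criteria, an unadjusted p of at most 0.05 with a ratio of 1.5 or more, or 0.67 or less, served as another alternative. Of all 17852 genes, edgeR called 3218 between the 60% HFD and the ND (limma, 3315) and 1905 between the 40% HFD and the ND (limma, 1645). The limma procedure was tested on simulated reads with a single dispersion for all genes. Unlike in these libraries, RNA of other tissues did not vary between the simulated ones.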

Additional observations from a re-analysis of the deposited data

Results flagged for a closer look

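A difference between groups was found for *Pmvk*, the phosphomevalonate kinase, whose genotype effect differed between the 60% HFD and the ND by 1.09 ± 0.24 on the log2 scale (limma, adjusted p = 0.0378), averaged over ligature. The call was lost in 18 of 48 other settings.

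The effect of the ligature under an ND differed between CCL19-KI and WT mice, by a contrast chosen after seeing the data, for 6 synthesis genes and 1 transport gene (limma). The difference was 2.76 for *Nsdhl* (adjusted p = 0.00204), 2.71 for *Fdps* (0.0223), 2.48 for *Sqle* (0.00909), 1.68 for *Mvd* (0.00204), 1.53 for *Mvk* (0.0093) and 1.44 for *Lss* (0.0314). It was -1.49 for *Npc1*, the lysosomal exporter (0.0252). The 3 unligatured WT mice under an ND had *Alb* of 5.55 to 13.4 normalized CPM, and with *Alb* as a covariate none of the 7 was called.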

How the results depend on the processing

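The count of members called for the 60% HFD against the ND averaged over all mice was 18, and it stayed at 15 to 18 under the other settings and at 18 to 20 when single mice were left out, and 12 of the 18 members were called in each of these settings in which they were tested (*Mvd* was not tested with a filter at a mean of 5). The count for ligatured WT mice (13) stayed at 10 to 18, and at 3 to 14 when single mice were left out. The following counts moved by more than 1.5 times, and the cause was not tested. With the study's criteria the count was 10 for the 60% HFD against the 40% HFD (5 as reported), 2 for the ligature averaged (1), 0 for the genotype averaged (1), 6, 1 and 3 for the genotype in ligatured mice under an ND, a 40% HFD and a 60% HFD (1, 0 and 0), 15 for the genotype in unligatured mice under an ND (6), 4 and 11 for the 60% HFD in unligatured WT and CCL19-KI mice (0 each), and, for the interactions, 10 and 5 for genotype with the 40% HFD and the 60% HFD (0 and 1), 11 for ligature with genotype (0), 13 for the same within the ND (7) and 9 for ligature with the 60% HFD in WT mice (0). With DESeq2 it was 10 for the 60% HFD against the 40% HFD, 7 for the ligature, 3 for the genotype, and 4 for the genotype in ligatured mice under an ND. With *Alb* as a covariate it was 0 for the 40% HFD (3), for genotype with the 60% HFD, for the genotype in unligatured ND mice and for ligature with genotype within the ND, 6 for the 60% HFD in ligatured CCL19-KI mice (17), and 3 for the ligature in WT mice under an ND (11). With the hepatocyte markers it was 0 for the same contrasts as *Alb*, 7 for the 60% HFD in ligatured CCL19-KI mice, and 2 for the ligature averaged and for the genotype in ligatured ND mice. With the epididymal markers it was 0 for the 40% HFD and the genotype in ligatured ND mice, 3 for the ligature averaged and 4 for the 60% HFD in ligatured CCL19-KI mice. Without the 5 libraries of high *Crisp1*, a setting chosen after seeing the data, it was 3 for the ligature, 7 for the genotype, 0 and 12 for the genotype in ligatured and unligatured ND mice, 1 for ligature with genotype, 3 for the same within the ND, 10, 1 and 1 for the 60% HFD in ligatured CCL19-KI, unligatured WT and unligatured CCL19-KI mice, and 8 for the slope on *Alb* (2). Quantile normalization gave 0 for the genotype averaged. For genotype with the 60% HFD, no filter gave 0, a filter at a mean of 5 gave 2 and edgeR gave 2. In the fit of all 36 mice, the count was 12 for the genotype in unligatured ND mice, and 1 and 8 for the 60% HFD in unligatured WT and CCL19-KI mice.

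Leaving out each mouse in turn gave 1 to 5 for the 40% HFD, 4 to 9 between the HFDs, 0 to 2 for the ligature, 0 to 4 for the genotype, 1 to 4, 0 to 0 and 0 to 0 for the genotype in ligatured mice under an ND, a 40% HFD and a 60% HFD, 0 to 11 in unligatured ND mice, 9 to 19 for the 60% HFD in ligatured CCL19-KI mice, 0 to 1 and 0 to 6 in unligatured WT and CCL19-KI mice, 3 to 14 for the ligature in WT mice under an ND, 0 to 6 and 0 to 4 for genotype with the 40% and 60% HFD, 0 to 0 for ligature with genotype, 4 to 8 within the ND, 0 to 0 for ligature with the 60% HFD in WT mice, and 1 to 6 for the slope on *Alb*. The counts of single arms moved too, with 0 to 2 for the 40% HFD in ligatured WT mice (0, and 0 to 4 over the other settings), 0 to 4 in unligatured WT mice (2, and 0 to 8), 2 to 10 for the 40% HFD in ligatured CCL19-KI mice (7, and 0 to 10), 0 to 2 for the genotype in unligatured mice under a 60% HFD (1, and 0 to 10) and 0 to 4 for the ligature in CCL19-KI mice under a 60% HFD (1, and 0 to 9). With the replicate number as a block, the count was 2 for the genotype in ligatured ND mice, 0 for the genotype in unligatured mice under a 60% HFD and 0 for the 40% HFD in unligatured WT mice (2). Deviations of same-numbered mice from their group means had a median correlation of -0.0153 (198 pairs, 73 above 0.1). For mice of different numbers it was 0.0172 (396 pairs, 151 above 0.1). The main fits used no pairing by number, and these correlations cannot exclude a batch shared by some mice. With 3 mice a group, small differences were not detectable. Low members such as *Mvd*, at 1.93 to 10.2 normalized CPM, are measured with fewer reads than *Insig1*.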
